A study of Mus musculus with 9 samples.

Results

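The genes described here encode 28 enzymes and carriers that bring pyruvate into the mitochondrion, turn the tricarboxylic acid (TCA) cycle apart from succinate dehydrogenase, feed it from glutamate and aspartate, and export its citrate. They were taken by symbol from a list and all 28 were found among 23936 genes with a symbol. A minimum of 1 FPKM (fragments scaled to transcript length and to the library's mapped fragments) in any 3 libraries kept 10185 genes for testing, 27 members among them, and left out Pcx, which lay under it in every library. RNA sequencing covered 9 libraries of mouse CD8 T cells, with 3 groups of 3 libraries. All carry the OT-I transgene, a T cell receptor specific for a peptide of ovalbumin presented by MHC class I. MLN-primed cells came from the MLN, the usual short form of mesenteric lymph node, with "oral" in their titles, spleen-primed cells came from the spleen with "iv" in their titles, and naive cells came from the spleen. Organ and the route named in the titles therefore change together between the primed groups and cannot be told apart. The labels give no age, time after priming or sorting gate, and do not say that replicates are separate animals. The p-values therefore rest on library-to-library spread that could be technical.

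Pyruvate from glycolysis enters the mitochondrion through the MPC carrier and is turned into acetyl-CoA by the pyruvate dehydrogenase complex or into oxaloacetate by pyruvate carboxylase. Citrate synthase joins acetyl-CoA to oxaloacetate, and the cycle oxidises the product while reducing NAD for the respiratory chain. Glutamate enters as alpha-ketoglutarate, aspartate transaminases and malate dehydrogenases carry reducing power across the inner membrane, and exported citrate supplies cytosolic acetyl-CoA. Naive T cells are metabolically quiet, and activated CD8 T cells are known to enlarge their mitochondria, raise glutamine use and build biomass from cycle intermediates.

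All libraries held CD8 T cell transcripts, with the summed FPKM of 6 CD8 T cell markers at 1540 to 1610 in MLN-primed, 2340 to 2440 in spleen-primed and 3270 to 3600 in naive libraries. Cd4 itself was at 0.0509 to 0.269 FPKM in all 9. The 4 CD4 T cell markers, Cd4 among them, summed to 8.53 to 11.6 FPKM in MLN-primed and 9.31 to 13.5 in spleen-primed libraries. In naive libraries their sum was 15.1 to 18.3 FPKM. Of these markers, 2 reached a mean of 1 FPKM in MLN-primed, 2 in spleen-primed and 1 in naive cells. Markers of each other cell type summed to less than the CD8 T cell markers in every library, but not equally across groups. Of 6 myeloid markers measured, 2 reached a mean of 1 FPKM in MLN-primed, 3 in spleen-primed and 3 in naive cells, and their sums were 15.7 to 19.1 FPKM in MLN-primed, 47.4 to 50.6 in spleen-primed and 8.02 to 23.3 FPKM in naive libraries. The 6 B cell markers summed to 11.3 to 14.5 FPKM in MLN-primed, 6.49 to 8.32 in spleen-primed and 11.2 to 14.9 FPKM in naive libraries. The 6 dendritic cell markers summed to 34.6 to 46.5 FPKM in MLN-primed, 90.3 to 104 in spleen-primed and 1.58 to 3.49 FPKM in naive libraries. Only 1 of them reached a mean of 1 FPKM in each group, so 1 gene made up most of the sum in each primed group. The 4 NK cell markers summed to 11.9 to 13.2 FPKM in MLN-primed, 25.2 to 31.0 in spleen-primed and 4.95 to 11.1 in naive libraries. The 4 red cell markers summed to 0.335 to 33.2 FPKM in MLN-primed, 1.65 to 17.9 in spleen-primed and 4.78 to 27.8 in naive libraries. The part of these cells in the results below was not tested, and fewer cells of a type and less RNA per cell cannot be told apart in such bulk samples. Libraries within the primed groups stood apart in the proliferation gene Mki67, at 8.32, 76.0 and 84.1 FPKM in MLN-primed and 13.4, 22.4 and 87.1 FPKM in spleen-primed libraries 1 to 3. MLN-primed 1 and spleen-primed 3 also had the outermost trends of expression with transcript length, with slopes of -0.0888 and 0.0779 in log2(FPKM + 1) per doubling of length after the group mean of each gene was taken away. Member calls that change when both are omitted are given below. The remaining libraries then had Mki67 at 76.0 and 84.1 FPKM in MLN-primed and 13.4 and 22.4 FPKM in spleen-primed cells. Mki67 thus did not overlap between the primed groups in that setting, while it did with all libraries. Its part in the calls of that setting was not tested.

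The summed level of the members was higher in primed cells. Their summed FPKM was 2251 to 2471 in MLN-primed, 2006 to 2157 in spleen-primed and 1193 to 1233 in naive libraries, which was 0.359% to 0.377% of all FPKM in MLN-primed, 0.312% to 0.326% in spleen-primed and 0.166% to 0.188% in naive libraries. Neither primed group overlapped naive, and the primed groups did not overlap each other. FPKM are divided by transcript length, so levels can be compared between genes. Mdh2, the mitochondrial malate dehydrogenase that regenerates oxaloacetate, was the most abundant member in each group, and Pcx the least. The order between them changed, since Glud1 was 13th of 28 in MLN-primed and 6th in spleen-primed against 2nd in naive cells, while Idh3a was 6th and 9th against 19th, Fh1 9th and 11th against 20th, and Got2 4th in both primed groups against 11th.

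**Figure D1:**
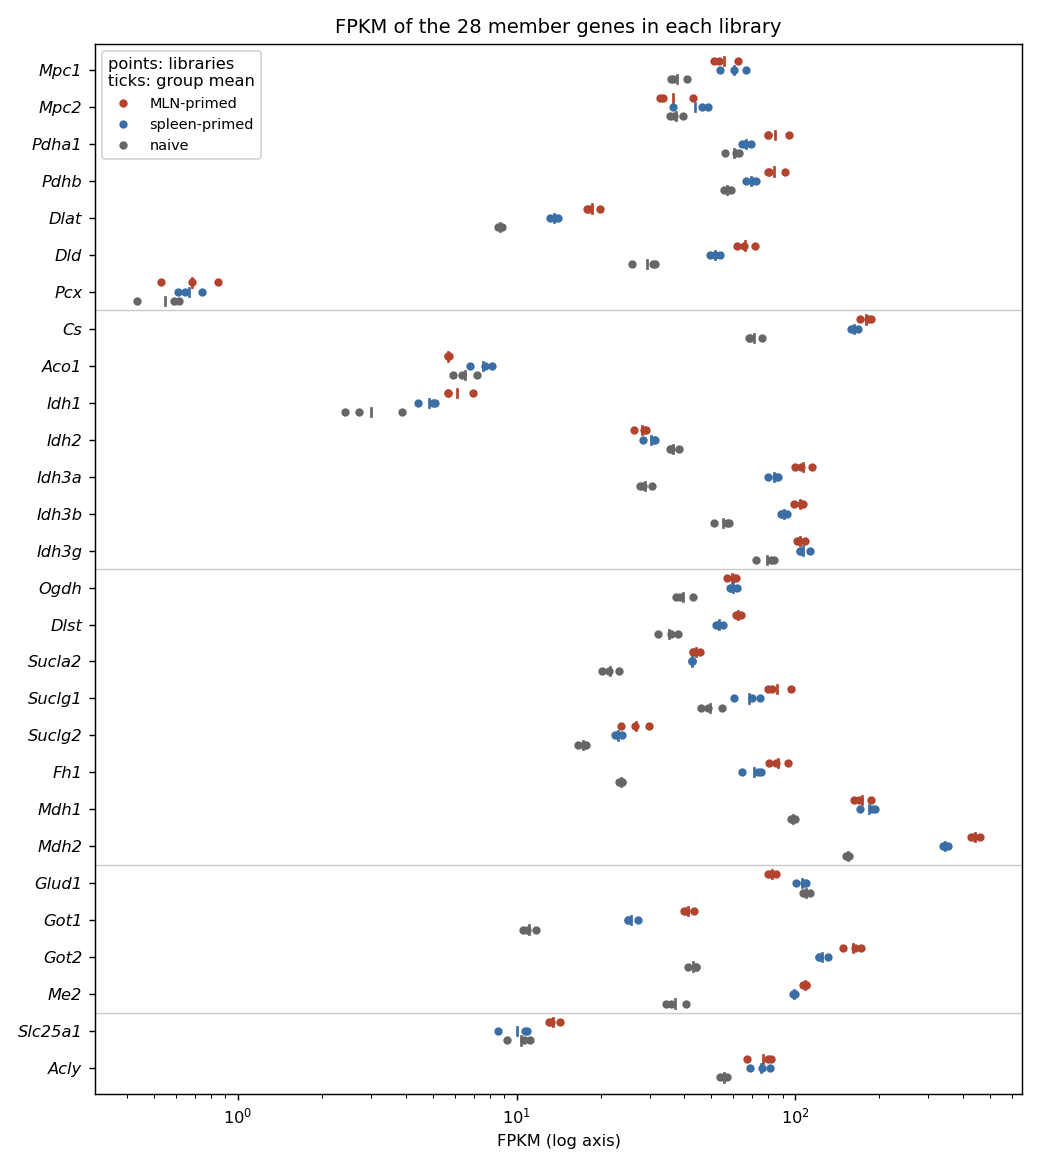
FPKM of the 28 genes on a log axis, with a point for each library of the MLN-primed, spleen-primed and naive groups and a tick at each group mean. Lines separate pyruvate entry, the steps from citrate to alpha-ketoglutarate, the steps from alpha-ketoglutarate to oxaloacetate, glutamate and aspartate enzymes, and citrate export. Naive points lie left of the primed ones for most genes, and right of them for Idh2.

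Against naive cells, 23 of 27 members were higher and 2 lower in MLN-primed cells, and 21 were higher and 1 lower in spleen-primed cells (limma, Benjamini-Hochberg adjusted p of 0.05). Of all genes tested, 45.5% were higher and 33.2% lower in MLN-primed cells (78.7% in either direction), and 43.1% and 32.7% in spleen-primed cells (75.8%). The median log2 difference was 0.81 for the members against 0.15 for all genes in MLN-primed cells, and 0.59 against 0.10 in spleen-primed cells. Both comparisons use the same naive libraries. Scaling bears on these numbers: quantile normalisation moved the median of all genes to -0.04 in MLN-primed and -0.07 in spleen-primed cells, and 16 members were then higher and 4 lower in each. The corresponding counts over all genes were 3843 higher and 4141 lower in MLN-primed cells, and 3545 higher and 4070 lower in spleen-primed cells, against 4635 and 3385, and 4387 and 3331, as deposited. With a trend in transcript length removed from each library, 20 members were higher and 4 lower in MLN-primed, and 16 higher and 3 lower in spleen-primed cells. Over all genes this gave 3852 higher and 4155 lower in MLN-primed cells, and 3607 and 4125 in spleen-primed cells. Calls of 18 members in MLN-primed and 15 in spleen-primed cells held in every alternative that was run, among them those of Dlat, Dld, Cs, Idh2, Idh3a, Idh3b, Dlst, Sucla2, Fh1, Mdh1, Mdh2, Got1, Got2 and Me2 in both.

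**Figure D2:**
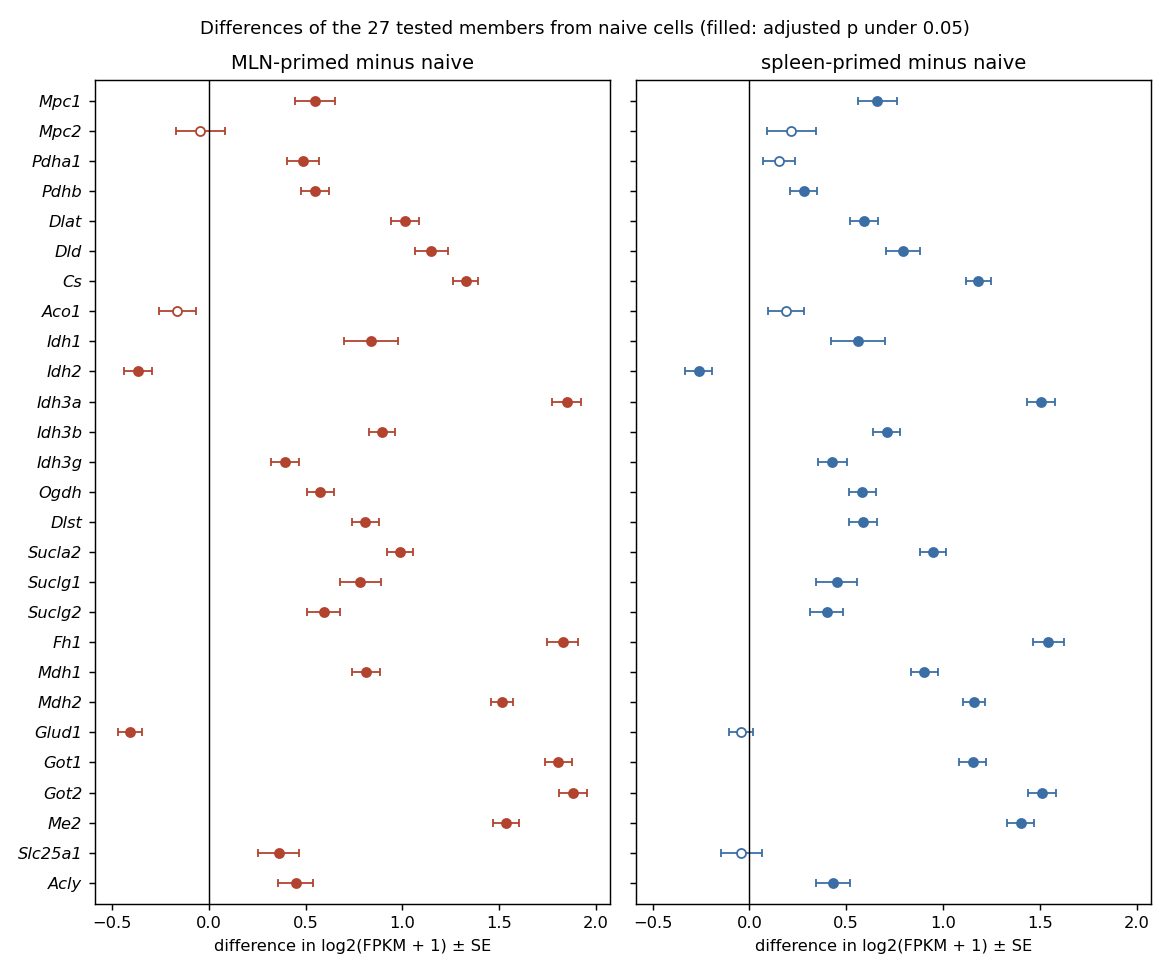
Difference in log2(FPKM + 1) from naive cells for the 27 tested members, with its standard error from limma, in MLN-primed (left) and spleen-primed cells (right). Filled points passed an adjusted p of 0.05. Got2, Idh3a, Fh1 and Got1 lie farthest right among MLN-primed differences, and Idh2 lies left of 0 in both panels.

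Of 6 tested genes of pyruvate entry, 5 were higher in MLN-primed and 4 in spleen-primed cells than in naive, and none was lower as deposited. The shares of all genes were 45.5% higher and 33.2% lower in MLN-primed, and 43.1% and 32.7% in spleen-primed cells. Of the carrier's subunit genes, Mpc1 was at 62.3, 53.4 and 51.2 FPKM in MLN-primed, 60.2, 66.8 and 53.7 in spleen-primed and 40.8, 36.4 and 35.7 FPKM in naive libraries. Both primed groups lay above naive, by 0.55 ± 0.10 and 0.66 ± 0.10 on the log2(FPKM + 1) scale (± SE; adjusted p = 6.32e-04 and 1.98e-04). Its partner Mpc2, with which it forms a heterodimer, was at 42.8, 33.6 and 32.6 FPKM in MLN-primed, 48.6, 46.3 and 36.4 in spleen-primed and 35.6, 39.5 and 36.7 FPKM in naive libraries, overlapping in every pair of groups. The differences of Mpc2 from naive were -0.04 ± 0.13 and 0.22 ± 0.13 (adjusted p = 0.76 and 0.145), and in spleen-primed cells it passed without spleen-primed 3, with or without MLN-primed 1 (0.34 in each). Both genes have short transcripts (958 and 1025 bases), and removing the length trend left Mpc1 at 0.00 in MLN-primed and 0.14 in spleen-primed cells, past no threshold, while Mpc2 passed as lower, at -0.57 and -0.28, the second a change of direction. Under quantile normalisation Mpc1 also lost its call in MLN-primed cells (0.10), where Mpc2 was called lower (-0.47), and in spleen-primed cells Mpc2 turned to -0.18.

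Within the pyruvate dehydrogenase complex, the acetyltransferase gene Dlat and the dihydrolipoamide dehydrogenase gene Dld had larger differences from naive than the genes of the decarboxylase subunits, a contrast between genes that was not itself tested. Dlat was at 19.9, 17.8 and 18.2 FPKM in MLN-primed, 14.0, 13.7 and 13.2 in spleen-primed and 8.88, 8.68 and 8.60 FPKM in naive libraries, without overlap between any groups. Its differences from naive were 1.01 ± 0.07 and 0.59 ± 0.07 (adjusted p = 5.13e-07 and 3.46e-05). Dld, whose product also serves the alpha-ketoglutarate dehydrogenase complex, averaged 66.2 ± 4.89 FPKM in MLN-primed, 51.5 ± 2.16 in spleen-primed and 29.3 ± 2.95 FPKM in naive cells (mean ± SD, n = 3 each). Pdha1, the X-linked alpha subunit gene that carries the regulatory phosphorylation sites, was at 94.7, 79.7 and 79.6 FPKM in MLN-primed, 66.2, 69.3 and 64.6 in spleen-primed and 62.9, 56.1 and 61.0 FPKM in naive libraries. It was 1.41-fold higher in MLN-primed than in naive cells as deposited (0.49 ± 0.08, adjusted p = 3.23e-04), a direction that turned under quantile normalisation (-0.06). In spleen-primed cells its difference of 0.15 ± 0.08 did not pass (adjusted p = 0.12), quantile normalisation gave a called fall (-0.32), and omitting both MLN-primed 1 and spleen-primed 3 gave a called rise (0.17, adjusted p = 0.0461). Pdhb, the beta subunit gene, was 1.47-fold higher in MLN-primed and 1.22-fold higher in spleen-primed than in naive cells, but in MLN-primed cells its call ended under quantile normalisation (0.02), and in spleen-primed cells it ended under median-of-ratios scaling (0.19) and its direction turned under quantile normalisation (-0.18) and with the length trend removed (-0.09). Pcx, the pyruvate carboxylase gene, was at 0.529 to 0.846 FPKM in MLN-primed, 0.610 to 0.739 in spleen-primed and 0.434 to 0.614 FPKM in naive libraries. These overlap, and Pcx was not tested on its own.

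The kinases that switch off pyruvate dehydrogenase by phosphorylation, and the phosphatases that reverse it, are not among the 28 but act on Pdha1. Of 6 tested genes of this list, 1 was higher and 3 lower in MLN-primed than in naive cells, and 1 was higher and 4 lower in spleen-primed cells, where 33.2% and 32.7% of all genes were lower. The median log2 difference of the list was -0.55 in MLN-primed and -0.38 in spleen-primed cells. Pdk1 was at 7.41, 7.84 and 6.42 FPKM in MLN-primed, 3.93, 4.60 and 5.15 in spleen-primed and 46.4, 43.4 and 49.7 FPKM in naive libraries. It fell by 2.53 in MLN-primed and 3.10 in spleen-primed cells on the log2 scale (adjusted p = 1.06e-08 and 3.12e-09), and its MLN-primed level lay above the spleen-primed one by 0.57 (adjusted p = 0.00324). Pdk2 was at 0.0894, 0.205 and 0.0709 FPKM in MLN-primed, 0.103, 0.195 and 0.232 in spleen-primed and 8.35, 8.04 and 9.30 FPKM in naive libraries. Pdk3 moved the other way, at 38.0, 36.2 and 31.6 FPKM in MLN-primed, 39.4, 34.4 and 35.3 in spleen-primed and 15.2, 13.8 and 15.2 FPKM in naive libraries, and its rises of 1.20 and 1.24 passed (adjusted p = 6.72e-07 and 6.55e-07). The most abundant of these 3 kinase transcripts was Pdk3 in both primed groups and Pdk1 in naive cells. The phosphatase gene Pdp1 averaged 2.12 ± 0.269 FPKM in MLN-primed, 2.92 ± 0.252 in spleen-primed and 4.47 ± 0.343 FPKM in naive cells, a fall in both primed groups. These 4 calls against naive held, in both primed groups, in every alternative run in which the gene was tested. Pdk2, counted among the lower genes above, lay under 1 FPKM in every primed library. It passed the filter through its naive libraries alone, so its direction followed from how it entered the test.

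**Figure D3:**
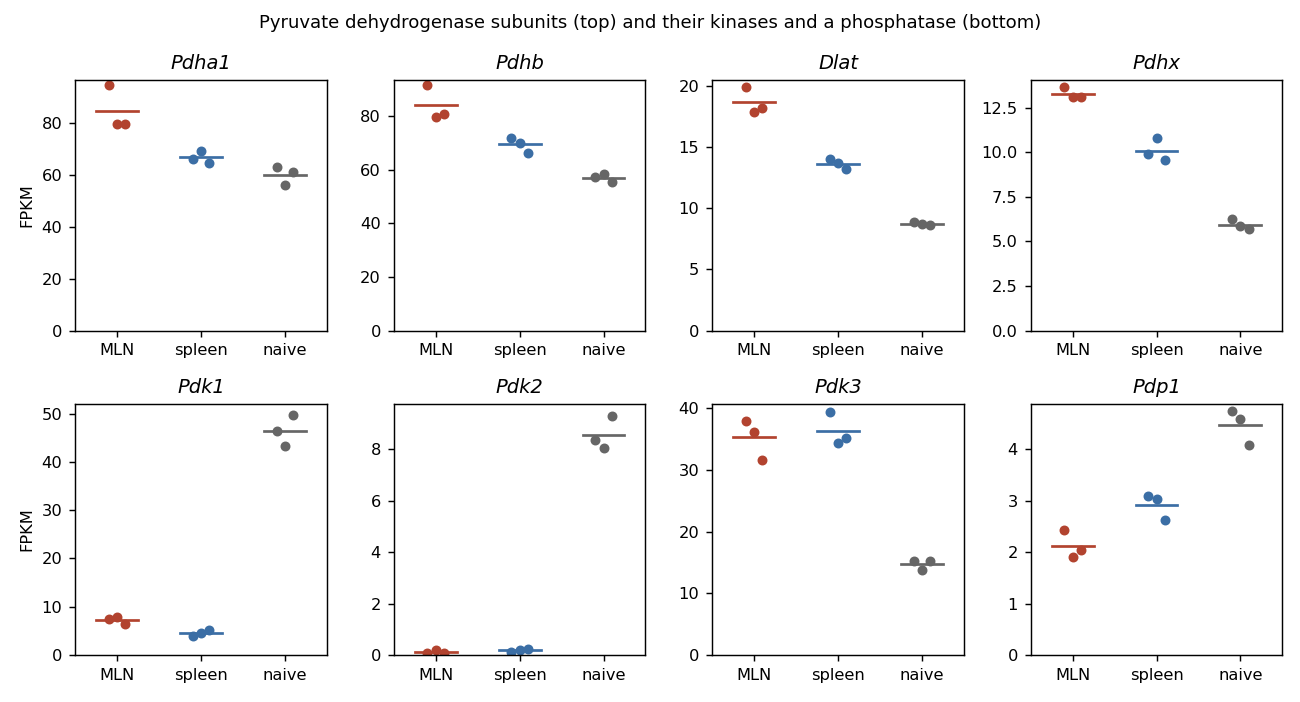
FPKM of pyruvate dehydrogenase subunit genes (top row) and of 3 kinase genes and 1 phosphatase gene (bottom row) in MLN-primed, spleen-primed and naive libraries, with a point per library and a line at each mean. Pdk1 and Pdk2 are highest in naive libraries, while Pdk3 is at 31.6 to 39.4 FPKM in primed and 13.8 to 15.2 FPKM in naive libraries.

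From citrate to alpha-ketoglutarate, 5 of 7 genes were higher and 1, Idh2, was lower than naive in each primed group as deposited. The shares of all genes were 45.5% higher and 33.2% lower in MLN-primed, and 43.1% and 32.7% in spleen-primed cells. Cs, citrate synthase, was at 187, 182 and 170.4 FPKM in MLN-primed, 161, 168 and 159 in spleen-primed and 75.9, 69.0 and 68.3 FPKM in naive libraries. That was 2.53-fold and 2.29-fold above naive (1.33 ± 0.07 and 1.18 ± 0.07, adjusted p = 3.66e-08 and 1.11e-07). The subunits of the NAD-dependent isocitrate dehydrogenase work as one enzyme, and the size of their differences varied. Idh3a, the catalytic alpha subunit gene, was at 115, 105 and 99.9 FPKM in MLN-primed, 85.0, 86.9 and 79.6 in spleen-primed and 30.5, 27.7 and 28.4 FPKM in naive libraries. It was 3.69-fold and 2.90-fold above naive (1.85 ± 0.07 and 1.51 ± 0.07, adjusted p = 7.34e-09 and 4.00e-08). Idh3b averaged 104 ± 4.15 FPKM in MLN-primed and 90.8 ± 2.17 in spleen-primed against 55.3 ± 3.77 FPKM in naive cells, 1.88-fold and 1.64-fold higher. Idh3g, the X-linked regulatory subunit gene, averaged 104 ± 3.82 FPKM in MLN-primed and 107 ± 5.17 in spleen-primed against 79.2 ± 6.31 FPKM in naive cells. It was called higher as deposited (0.39 and 0.43), but its direction turned under quantile normalisation in both groups (-0.20 and -0.11) and, with the length trend removed, in MLN-primed cells (-0.04), while the call ended in spleen-primed cells (0.02).

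The NADP-dependent forms moved in opposite directions. Idh2, the mitochondrial form, was at 29.2, 28.7 and 26.5 FPKM in MLN-primed, 31.4, 31.0 and 28.5 in spleen-primed and 35.9, 35.4 and 38.2 FPKM in naive libraries, and both primed groups lay below naive. Its falls of 0.37 and 0.26 on the log2 scale passed (adjusted p = 7.58e-04 and 0.00645), also under every scaling tried. Idh1, the cytosolic and peroxisomal form, was at 6.96, 5.65 and 5.68 FPKM in MLN-primed, 5.01, 5.10 and 4.42 in spleen-primed and 3.87, 2.42 and 2.72 FPKM in naive libraries. It rose by 0.84 ± 0.14 and 0.56 ± 0.14 (adjusted p = 2.71e-04 and 0.00408), and the second call ended with the length trend removed (0.34). Aco1, the cytosolic aconitase that doubles as an iron-responsive RNA-binding protein, was at 5.70, 5.69 and 5.67 FPKM in MLN-primed, 6.82, 8.13 and 7.70 in spleen-primed and 7.22, 5.91 and 6.37 FPKM in naive libraries. Neither difference from naive passed (-0.16 and 0.19, adjusted p = 0.137 and 0.0897), though the MLN-primed difference passed as lower under median-of-ratios scaling (-0.29) and with the length trend removed (-0.24), and the spleen-primed one as higher without naive 1 (0.26).

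From alpha-ketoglutarate to oxaloacetate, all 8 genes were called higher than naive in both primed groups as deposited. Of all genes, 45.5% were higher in MLN-primed and 43.1% in spleen-primed cells. Fh1, fumarate hydratase, changed most among them, at 94.3, 80.6 and 85.4 FPKM in MLN-primed, 73.2, 75.5 and 64.4 in spleen-primed and 23.8, 23.3 and 23.8 FPKM in naive libraries (1.83 ± 0.08 and 1.54 ± 0.08, adjusted p = 1.55e-08 and 6.69e-08). Mdh2 was at 461, 437 and 427 FPKM in MLN-primed, 342, 355 and 338 in spleen-primed and 152, 154 and 156 FPKM in naive libraries, that is 2.87-fold and 2.24-fold above naive. Mdh1, its cytosolic counterpart in the malate-aspartate shuttle, was at 187, 170.0 and 162 FPKM in MLN-primed, 189, 193 and 171 in spleen-primed and 96.9, 97.7 and 99.4 FPKM in naive libraries, and its primed groups overlapped, while those of Mdh2 did not. Of the succinyl-CoA ligase genes, Sucla2, the ATP-forming beta subunit, averaged 43.9 ± 1.49 FPKM in MLN-primed, 42.6 ± 0.0402 in spleen-primed and 21.6 ± 1.51 FPKM in naive cells. Suclg2, the GTP-forming beta subunit, averaged 26.7 ± 3.04 FPKM in MLN-primed, 23.1 ± 0.737 in spleen-primed and 17.3 ± 0.561 FPKM in naive cells. Suclg1, the alpha subunit that both share, averaged 86.1 ± 8.88 FPKM in MLN-primed, 68.3 ± 7.31 in spleen-primed and 49.6 ± 4.57 FPKM in naive cells. The rises of Suclg1 and Suclg2 passed in both groups, but in spleen-primed cells they ended under quantile normalisation (0.01 and 0.15), and that of Suclg1 also with the length trend removed (0.09). Ogdh and Dlst, which encode the decarboxylase and the succinyltransferase of the alpha-ketoglutarate dehydrogenase complex, rose by 0.58 and 0.81 in MLN-primed and by 0.58 and 0.59 in spleen-primed cells. The call of Ogdh ended under quantile normalisation in MLN-primed cells (0.11).

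The aspartate transaminase and malic enzyme genes rose in both primed groups, while the glutamate dehydrogenase gene fell in MLN-primed cells. Got2, the mitochondrial aspartate transaminase, was at 172, 164 and 149 FPKM in MLN-primed, 122, 131 and 121 in spleen-primed and 44.1, 41.2 and 44.0 FPKM in naive libraries. It was 3.75-fold and 2.89-fold above naive (1.88 ± 0.07 and 1.51 ± 0.07, adjusted p = 5.31e-09 and 3.08e-08). Got1, the cytosolic form that makes or uses aspartate outside the mitochondrion, was at 43.2, 40.4 and 39.8 FPKM in MLN-primed, 25.1, 25.1 and 27.2 in spleen-primed and 11.7, 10.9 and 10.6 FPKM in naive libraries, 3.72-fold and 2.33-fold above naive. Me2, the mitochondrial malic enzyme that turns malate into pyruvate, was at 109, 109 and 107 FPKM in MLN-primed, 98.7, 99.6 and 97.9 in spleen-primed and 40.5, 34.3 and 35.8 FPKM in naive libraries (2.94-fold and 2.68-fold above naive). Glud1, which converts glutamate into alpha-ketoglutarate, was at 85.5, 81.6 and 79.7 FPKM in MLN-primed, 108, 109.7 and 101 in spleen-primed and 109, 107 and 113 FPKM in naive libraries. It fell by 0.41 on the log2 scale in MLN-primed cells (± 0.06, adjusted p = 1.29e-04), and in spleen-primed cells the groups overlapped (-0.04 ± 0.06, adjusted p = 0.526), although quantile normalisation gave a called fall there too (-0.61).

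Of the genes for citrate export and use, Acly rose in both primed groups and Slc25a1 in MLN-primed cells. Slc25a1, the mitochondrial citrate carrier, was at 13.1, 14.3 and 13.3 FPKM in MLN-primed, 8.59, 10.7 and 10.9 in spleen-primed and 9.26, 11.2 and 10.6 FPKM in naive libraries. MLN-primed libraries lay above both other groups, by 0.36 ± 0.11 against naive (adjusted p = 0.00978), a call that ended under median-of-ratios scaling (0.23), quantile normalisation (0.24) and with the length trend removed (0.00). The spleen-primed difference of -0.04 ± 0.11 did not pass (adjusted p = 0.733), and turned to 0.06 without spleen-primed 1 and 0.01 without naive 2. With the length trend removed it was a called fall (-0.37). Acly, the ATP citrate lyase gene, averaged 76.4 ± 7.86 FPKM in MLN-primed, 75.3 ± 6.32 in spleen-primed and 55.5 ± 1.56 FPKM in naive cells. Its rises of 0.45 and 0.43 passed as deposited (adjusted p = 9.86e-04 and 0.00141), and their direction turned under quantile normalisation (-0.07 and -0.04).

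Of members that could be compared with a partner in the same library, several shifted their ratio with priming. For 8 pairs, the log2 ratio in the 6 primed libraries was compared with that in the 3 naive libraries by an exact permutation test, two-sided, whose smallest p is 0.0238, adjusted over the pairs. The test pools MLN-primed and spleen-primed libraries, whose ratios differed from each other for some pairs, so an SD over the 6 mixes both groups. Idh3a over Idh3g was 1.06, 1.04 and 0.970 in MLN-primed, 0.819, 0.771 and 0.767 in spleen-primed and 0.424, 0.331 and 0.347 in naive libraries, as a ratio of FPKM, without overlap between any groups. The log2 ratio differed by 1.27 (exact permutation test, p = 0.0238, adjusted p = 0.0381). The log2 ratio of Idh2 over Idh1 averaged 2.23 ± 0.22 in the 6 primed and 3.24 ± 0.28 in the 3 naive libraries (mean ± SD), a difference of -1.01 with the same exact p of 0.0238. Mdh2 over Mdh1 averaged 2.56 in MLN-primed, 1.87 in spleen-primed and 1.57 in naive libraries, Sucla2 over Suclg2 1.65, 1.84 and 1.25, and Mpc2 over Mpc1 0.651, 0.727 and 0.995. Their log2 ratios differed by 0.48, 0.47 and -0.52, each at the same p and without overlap between primed and naive libraries. Got2 over Got1 (0.22), Acly over Slc25a1 (0.28) and Pcx over Pdha1 (-0.20) overlapped and did not pass (exact permutation test, adjusted p = 0.0635, 0.136 and 0.238). As ratios of FPKM, Got2 over Got1 averaged 3.927 in MLN-primed, 4.845 in spleen-primed and 3.905 in naive libraries. Means of Acly over Slc25a1 were 5.63, 7.52 and 5.39. For both of these pairs spleen-primed libraries lay above all naive ones, while MLN-primed libraries overlapped naive. Pcx lay under 1 FPKM in every library and entered the ratio test although it was left out of the limma test. As ratios of FPKM, Pcx over Pdha1 averaged 0.00825 in MLN-primed, 0.00999 in spleen-primed and 0.00917 in naive libraries. Its difference of -0.20 therefore depends on the 1 added to each FPKM before the ratio was taken. With 1 library left out the smallest p the test can give is 0.0357 without a primed and 0.0714 without a naive library, so the number of calls (6 without MLN-primed 3 and 0 without any other) says little about stability. The differences of the 5 pairs that passed kept their sign and ran from 1.20 to 1.37 for Idh3a over Idh3g, -1.17 to -0.93 for Idh2 over Idh1, 0.43 to 0.53 for Mdh2 over Mdh1, 0.45 to 0.51 for Sucla2 over Suclg2 and -0.61 to -0.45 for Mpc2 over Mpc1.

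**Figure D4:**
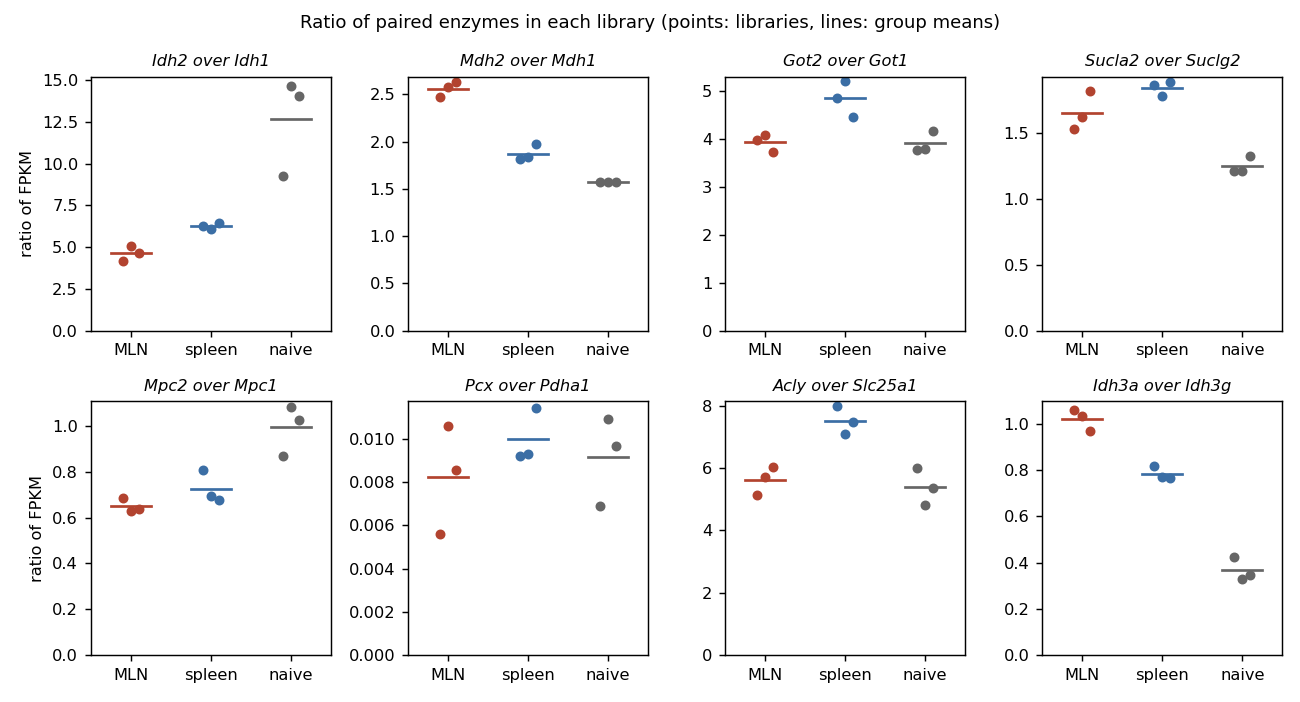
Ratio of FPKM of 8 gene pairs in each library of the MLN-primed, spleen-primed and naive groups, with lines at group means and axes from 0. The Idh3a over Idh3g ratio is lowest in naive libraries (0.331 to 0.424) and highest in MLN-primed libraries (0.970 to 1.06), and Idh2 over Idh1 runs the other way.

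Between the primed groups, 12 of 27 members were higher in MLN-primed cells and 2 were lower, where 17.3% of all genes tested were higher and 13.1% lower (30.4% in either direction). The median log2 difference was 0.20 for the members and 0.03 for all genes. Got1 differed most, at 43.2, 40.4 and 39.8 FPKM in MLN-primed against 25.1, 25.1 and 27.2 FPKM in spleen-primed libraries (0.65 ± 0.07, adjusted p = 1.96e-04). Dlat (0.42 ± 0.07), Got2 (0.37 ± 0.07), Mdh2 (0.36 ± 0.06) and Idh3a (0.34 ± 0.07) were also higher, 1.27-fold to 1.37-fold, and Glud1 was lower (-0.36 ± 0.06, adjusted p = 0.00183). None of these 6 genes had overlapping groups, and their calls held in every alternative run. That includes the run without spleen-primed 3 and MLN-primed 1, in which Mki67 did not overlap between the primed groups either.

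The other calls between the primed groups were less firm. Dld (0.36) and Pdha1 (0.34) held with each single library left out, but Pdha1 did not pass under median-of-ratios scaling (0.28) and Dld did not without both spleen-primed 3 and MLN-primed 1 (0.27). Slc25a1 (0.40) did not pass without spleen-primed 1 (0.30) or MLN-primed 2 (0.37). Aco1 (-0.35) did not pass without spleen-primed 2 (-0.30), spleen-primed 3 (-0.34), MLN-primed 2 (-0.35) or MLN-primed 3 (-0.35). Pdhb (0.27) did not pass without spleen-primed 2 (0.28), spleen-primed 3 (0.24) or MLN-primed 1 (0.21), and Fh1 (0.28) not without spleen-primed 3 (0.22), MLN-primed 1 (0.22) or MLN-primed 3 (0.29). Dlst (0.22) lost its call without any single primed library (0.20 to 0.25), and Suclg1 (0.33) without naive 1 (0.33), spleen-primed 1 (0.35), spleen-primed 3 (0.25), MLN-primed 1 (0.25) or MLN-primed 3 (0.36). When MLN-primed 1 and spleen-primed 3 were both omitted, 7 of 27 members were higher (25.9%) and 4 lower (14.8%), close to the 24.7% higher and 13.5% lower of all genes in that setting. The primed groups also did not overlap in Mki67 there. Pdhb (0.17), Dlst (0.19), Aco1 (-0.34), Fh1 and Suclg1 (0.16 each) then did not pass, and Mpc1 (-0.27), Mpc2 (-0.51) and Mdh1 (-0.20) were called lower. Median-of-ratios scaling gave 7 higher and 2 lower members. Besides Pdha1, Pdhb (0.21), Fh1 (0.23), Suclg1 (0.27) and Dlst (0.17) did not pass under it. Quantile normalisation gave 10 and 3, with Mdh1 (-0.17) the added lower one and Dlst (0.16) and Suclg1 (0.26) not passing. With the length trend removed, Fh1 (0.26) and Dlst (0.20) did not pass. Over all genes median-of-ratios scaling gave 1372 higher and 1601 lower, against 1760 and 1333 as deposited.

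**Figure D5:**
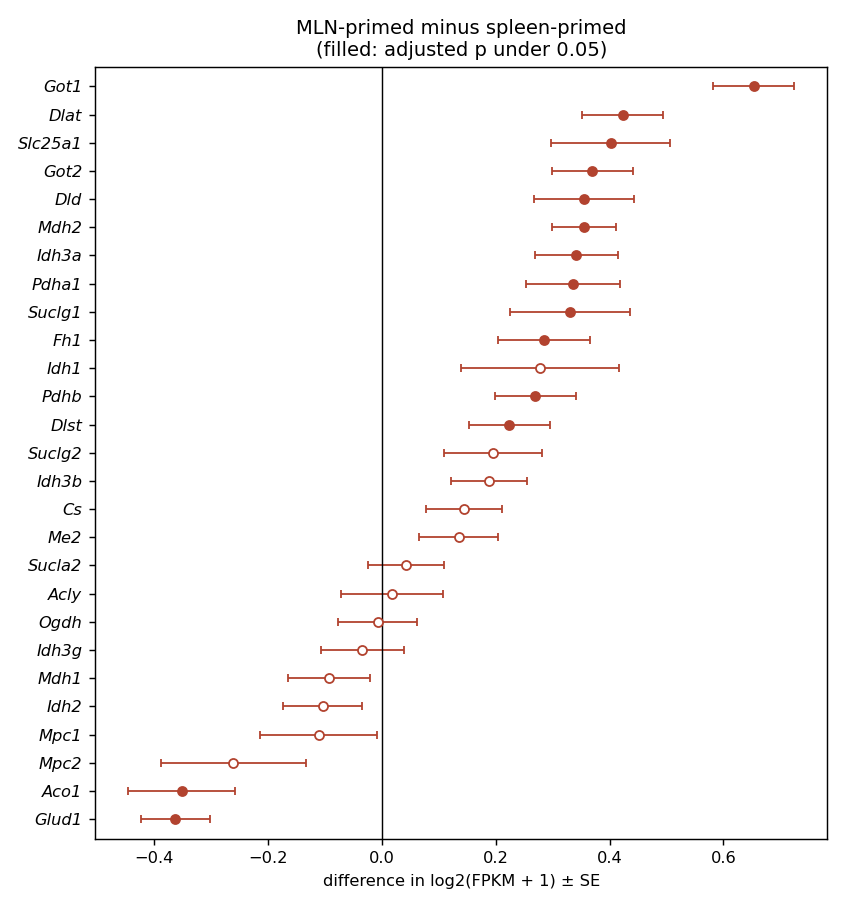
Difference in log2(FPKM + 1) between MLN-primed and spleen-primed cells for the 27 tested members, ordered by size, with the standard error from limma. Filled points passed an adjusted p of 0.05: 12 lie right of 0, with Got1 at 0.65, and Aco1 and Glud1 lie left of 0.

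The remaining 13 members did not pass between the primed groups. Cs (0.14), Me2 (0.13), Idh3b (0.19), Suclg2 (0.20) and Idh1 (0.28) were nominally above 0, and Idh3b passed without naive 1 (0.19) and Suclg2 without MLN-primed 3 (0.27). Sucla2 (0.04), Acly (0.02), Ogdh (-0.01) and Idh3g (-0.03) lay near 0, and their signs turned in 1 or more alternatives. Mdh1 (-0.09), Idh2 (-0.10), Mpc1 (-0.11) and Mpc2 (-0.26) were nominally below 0, and Mpc2 passed without spleen-primed 3 (-0.39) or MLN-primed 1 (-0.38). The ratios of pairs followed these differences, with Mdh2 over Mdh1 at 2.47 to 2.63 in MLN-primed and 1.81 to 1.97 in spleen-primed libraries, and Got2 over Got1 at 3.73 to 4.07 and 4.46 to 5.21. As ratios of FPKM, 5 of the 8 pairs did not overlap between the primed groups (6 after 1 was added to each FPKM, with Pcx over Pdha1), but 3 against 3 libraries cannot give an exact permutation p below 0.10, so none passed.

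Promoter sequence is shown for Got1, the member that differed most between the primed groups, Fh1, which was 3.67-fold higher in MLN-primed than in naive cells, and Glud1, which was lower in MLN-primed cells. The stretch runs from 250 to 51 bases before the RefSeq start in GRCm38.p6, on the gene's own strand, at chr19:43524656-43524855 (minus strand) for Got1, chr1:175625686-175625885 (minus) for Fh1 and chr14:34310477-34310676 (plus) for Glud1. Capitals mark matches to 6 motifs searched on both strands, namely the E-box CACGTG, NRF1 (GCGC, any base, then TGCGC), the ERR element AAGGTCA, ETS CCGGAAG, CRE TGACGTCA and the CCAAT box CCAAT. No motif contains another, and the set was chosen after the sequences had been seen.
Got1: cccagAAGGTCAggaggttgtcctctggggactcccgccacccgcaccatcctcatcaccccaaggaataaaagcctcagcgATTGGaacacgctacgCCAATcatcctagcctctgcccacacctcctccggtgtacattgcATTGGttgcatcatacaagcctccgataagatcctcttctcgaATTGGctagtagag
Fh1: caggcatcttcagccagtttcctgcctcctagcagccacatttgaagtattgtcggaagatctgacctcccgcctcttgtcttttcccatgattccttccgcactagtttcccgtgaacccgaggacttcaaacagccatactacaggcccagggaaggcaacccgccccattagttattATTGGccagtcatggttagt
Glud1: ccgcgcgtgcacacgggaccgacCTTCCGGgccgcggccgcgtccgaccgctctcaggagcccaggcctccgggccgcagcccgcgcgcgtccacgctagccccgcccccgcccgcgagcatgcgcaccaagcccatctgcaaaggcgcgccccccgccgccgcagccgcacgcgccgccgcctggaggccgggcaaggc
The Got1 stretch holds 1 ERR element and 4 CCAAT boxes, that of Fh1 1 CCAAT box and that of Glud1 1 ETS match. Promoter windows of 300 bases were found for 26 members, and 16 of them (61.5%) hold a CCAAT box, against 41.1% of 27025 genes with a window. ETS letters are in 5 members (19.2%, against 9.93%), the E-box in 3 (11.5%, against 8.09%), and NRF1, the ERR element and CRE in 2 each (7.69%, against 5.19%, 5.38% and 2.03%). A match describes letters and not binding.

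Genes next to the members in the pathway were more often higher than lower in primed cells, as were all genes. Of 58 tested neighbours, 37 were higher and 13 lower in MLN-primed than in naive cells, and 33 and 12 in spleen-primed cells, against 45.5% higher and 33.2% lower of all genes in MLN-primed and 43.1% and 32.7% in spleen-primed cells. Under quantile normalisation 31 were higher and 17 lower in MLN-primed, and 26 and 16 in spleen-primed cells. Between MLN-primed and spleen-primed cells 25 were higher and 5 lower, against 17.3% and 13.1% of all genes, and 18 and 5 under median-of-ratios scaling. Succinate dehydrogenase, the cycle enzyme that is also part of the respiratory chain, had 5 genes higher and 1 lower of 6 in each primed group against naive. Its iron-sulfur subunit gene Sdhb was at 246, 215 and 225 FPKM in MLN-primed, 208, 214 and 198 in spleen-primed and 72.0, 73.2 and 80.8 FPKM in naive libraries, and Sdhaf1, an assembly factor, was the one that fell (-0.68 and -0.72). Under quantile normalisation the flavoprotein subunit gene Sdha, chosen after its values were seen, turned to -0.08 in MLN-primed cells and to a called fall of 0.20 in spleen-primed cells, against rises of 0.57 and 0.39 as deposited, and Sdhc lost its call in spleen-primed cells (0.18). The aspartate-glutamate exchangers of the malate-aspartate shuttle differed, as Slc25a13 was at 14.4, 13.0 and 10.6 FPKM in MLN-primed, 6.86, 8.10 and 6.70 in spleen-primed and 1.86, 1.25 and 1.70 FPKM in naive libraries. Slc25a12, chosen after its values were seen, was at 23.8 to 26.9 FPKM in MLN-primed and 25.4 to 27.4 in spleen-primed against 22.4 to 26.99 FPKM in naive libraries and did not pass as deposited, while it was called lower in MLN-primed cells under quantile normalisation (-0.27) and higher in spleen-primed cells with the length trend removed (0.25). Among 12 tested genes of glutamine and glutamate use, 8 were higher and 3 lower in MLN-primed and 7 higher and 0 lower in spleen-primed cells, where 1 gene, Gpt, was lower at an unadjusted p of 0.05 and missed the threshold after adjustment, which it passed in several alternatives, among them median-of-ratios scaling (-0.25) and removal of the length trend (-0.50). The phosphoserine transaminase gene Psat1, which makes alpha-ketoglutarate from glutamate, averaged 161 ± 22.8 FPKM in MLN-primed, 111 ± 13.2 in spleen-primed and 14.1 ± 0.910 FPKM in naive cells.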

How the data were processed

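RNA was extracted with a micro-scale column kit and made into stranded mRNA libraries, per the labels' protocols. Reads went through TopHat and Cufflinks with the mm10 mouse genome, per the submitters' processing notes, whose versions were not stated. The deposited table holds FPKM per gene, which the authors normalised, so depth is unknown; FPKM sum to 612887 to 720165 per library. Rows without a symbol (131, 0.0479% of FPKM) were left out. Differences are of log2(FPKM + 1), which understates changes of low genes. They were tested with limma 3.58.1 (R 4.3.3, mean-variance trend, all 9 libraries, two-sided) on genes at 1 FPKM or more in at least 3 libraries. Benjamini-Hochberg adjustment ran over all genes tested. The test was tried on simulated data in which few genes changed and noise was independent between genes. That trial does not cover the larger shares of genes called here. Ratio pairs used the exact permutation test of scipy 1.17.1 on log2((A + 1)/(B + 1)). Deviations from the group mean of each spleen-primed library correlated most with the naive library of the same number, though weakly (0.16, 0.116 and 0.236). Between MLN-primed and spleen-primed libraries of the same number the values were 0.645, -0.24 and 0.485. In neither other comparison did every library correlate best with its own number, and pairing was not tested. All 28 members are named. Most neighbouring genes named come from up to 4 called genes of each neighbour list, those with the largest differences, and not every one is reported. Sdha, Slc25a12, Gpt and Lipt2 lie outside that rule and were chosen after their values were seen. Members, lists and tests were chosen with earlier results of these data known. Transcript lengths came from GENCODE M21 and promoter sequences from RefSeq.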

Additional observations from a re-analysis of the deposited data

Results flagged for a closer look

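The change against naive cells differed between the primed groups for 14 members, by the limma test of the MLN-primed against the spleen-primed libraries, in which the naive mean cancels. The log2 differences were 0.65 for Got1, 0.42 for Dlat, 0.40 for Slc25a1, 0.37 for Got2 and 0.36 for both Mdh2 and Dld. They were 0.34 for both Idh3a and Pdha1, 0.33 for Suclg1, 0.28 for Fh1, 0.27 for Pdhb and 0.22 for Dlst. Glud1 (-0.36) and Aco1 (-0.35) differed the other way. The calls of Got1, Dlat, Got2, Mdh2, Idh3a and Glud1 held in every alternative run, and each of the other 8 ended in at least 1 of them. Organ and route of priming changed together, and the part of either was not tested.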

How the results depend on the processing

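With 20 alternatives, 1521 of 1620 differences of single members kept their direction and side of the threshold. Of the counts of members between MLN-primed and spleen-primed cells, those higher fell to 7 under median-of-ratios scaling and to 7 with MLN-primed 1 and spleen-primed 3 both omitted, where 4 were lower and the share of members higher (25.9%) was near that of all genes (24.7%); with single libraries left out, 8 to 12 were higher and 1 to 3 lower. Against naive, 4 members were lower in MLN-primed cells under quantile normalisation and 4 with the length trend removed, and 4 and 3 in spleen-primed cells. With single libraries left out, 0 to 6 pair ratios passed in primed against naive libraries, where the smallest p was 0.0357 or 0.0714 and each of the 5 pairs that passed kept its sign. The replicate block changed no member call, with 3382, 7928 and 8207 genes called for MLN-primed against spleen-primed, spleen-primed against naive and MLN-primed against naive, against 3093, 7718 and 8020 without it. Between MLN-primed and spleen-primed libraries not every library correlated best with its own number. Signs turned for these members, and the cause was not tested. Between the primed groups, differences with single libraries left out ran over 0, from -0.063 to 0.0051 for Idh3g, -0.0285 to 0.022 for Ogdh and -0.047 to 0.10 for Acly. Median-of-ratios scaling gave -0.015 for Sucla2 and -0.040 for Acly, and Acly was at -0.030 under quantile normalisation and -0.014 with the length trend removed. In spleen-primed against naive cells, quantile normalisation gave -0.18 for Mpc2, -0.32 for Pdha1, -0.18 for Pdhb, -0.11 for Idh3g and -0.040 for Acly, and length removal gave -0.28 for Mpc2 and -0.087 for Pdhb. Slc25a1 ran from -0.11 to 0.058 there with single libraries left out, and Mpc2 from -0.16 to 0.026 in MLN-primed against naive cells. In MLN-primed against naive cells, quantile normalisation gave -0.060 for Pdha1, -0.20 for Idh3g and -0.070 for Acly, and length removal -0.040 for Idh3g. Under quantile normalisation the primed against naive differences of Got2 over Got1, Pcx over Pdha1 and Acly over Slc25a1 were -0.10, 0.028 and -0.12. FPKM without read counts give no counting error, so the precision of low genes such as Pcx cannot be stated.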

Other observations

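Genes around acetyl-CoA and lactate moved in both directions. Of 8 tested genes of acetyl-CoA fate, 5 were higher and 2 lower in MLN-primed than in naive cells, and 3 higher and 2 lower in spleen-primed cells, against 45.5% higher and 33.2% lower of all genes in MLN-primed and 43.1% and 32.7% in spleen-primed cells. Acss2, which makes acetyl-CoA from acetate in cytosol and nucleus, was at 10.97, 12.9 and 11.5 FPKM in MLN-primed, 26.1, 29.0 and 25.7 in spleen-primed and 25.6, 23.8 and 25.2 FPKM in naive libraries. MLN-primed libraries lay below both other groups, by 1.13 on the log2 scale against spleen-primed and 1.02 against naive cells (limma, adjusted p = 2.48e-05 and 1.28e-06). Its mitochondrial counterpart Acss1 was at 3.12, 3.66 and 3.81 FPKM in MLN-primed, 6.83, 7.75 and 8.28 in spleen-primed and 31.4, 32.2 and 33.3 FPKM in naive libraries. Among the genes of this list that rose as deposited, Acat2 differed from naive by 1.84 in MLN-primed and 1.33 in spleen-primed cells. Hmgcs1 differed by 1.13 and 0.37. Of 6 genes of the lactate branch, 5 were higher and 1 lower than naive in each primed group. Ldha, the lactate dehydrogenase subunit common in glycolytic cells, differed from naive by 2.17 in MLN-primed and 1.63 in spleen-primed cells, and Ldhb by -1.99 and -2.24.

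Lipoate is the cofactor of the dehydrogenase complexes that hold Dlat and Dlst. Of 6 tested genes of lipoate synthesis and transfer, 3 were higher and 1 lower in MLN-primed than in naive cells, and 3 higher and 2 lower in spleen-primed cells. The shares of all genes were 45.5% higher and 33.2% lower in MLN-primed, and 43.1% and 32.7% in spleen-primed cells. Whether this list differs from all genes was not tested. The lipoyltransferase gene Lipt1 was lower in both (-0.29 and -0.46), and Lipt2, chosen after its values were seen, was lower in spleen-primed cells (-0.36), but the fall of Lipt1 in MLN-primed cells and that of Lipt2 ended in several alternatives, among them those without naive 3 (-0.24 and -0.23). Mecr, a mitochondrial fatty acid synthesis enzyme upstream of lipoate, was at 26.2, 21.0 and 22.8 FPKM in MLN-primed, 16.2, 14.4 and 13.2 in spleen-primed and 3.82, 3.44 and 3.71 FPKM in naive libraries, without overlap between groups.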
